A study of Homo sapiens with 2 samples.

Results

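The genes described are the splicing factors of the SRSF, HNRNP, SNRP and SF3A/SF3B families, in human lung adenocarcinoma cells exposed to a cytotoxic small molecule. They were chosen by name alone: a probe set of the array entered when the platform annotation gave it exactly 1 gene symbol, made of SRSF, SF3A or SF3B and a number or starting with HNRNP or SNRP, and when that gene is annotated as protein-coding. This gave 50 genes on 155 probe sets, of 19775 genes that had a probe set of their own. They were 10 SRSF, 19 HNRNP, 12 SNRP and 9 SF3A/SF3B genes. A pseudogene and 2 divergent non-coding transcripts whose symbols start the same way (3 genes in all) were left out. SRSF2, SRSF9 and HNRNPH2 are not described, because their probe sets carry several symbols.

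The study compared 1 culture of the invasive non-small-cell lung cancer line CL1-5 treated for 24 h with 0.11 µM analogue 3 against 1 culture treated for 24 h with the solvent DMSO. Analogue 3 belongs to a series derived from the natural product desmosdumotin C and carries iodo, tripropyl and methoxy groups. The dose equals the effective dose that the submitters give for its toxicity to these cells. Each group was 1 Affymetrix Human Genome U133 Plus 2.0 array, so no difference has a replicate check, no p-value is given, and every "higher" or "lower" compares these 2 arrays. Both groups are bulk cultures of 1 cell line, in which a different mix of cells and a different amount of RNA per cell cannot be told apart.

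Splicing removes introns from pre-mRNA in a machine built of small nuclear ribonucleoproteins (snRNPs). SNRP genes encode the proteins of these particles, most of them members of the Sm ring that clasps the small nuclear RNA. SF3A and SF3B proteins belong to the U2 snRNP and help it to hold the branch point of the intron. SR proteins, encoded by SRSF genes, bind exons through RNA recognition motifs and recruit the machinery through domains rich in arginine and serine. Proteins of the heterogeneous nuclear ribonucleoproteins (hnRNPs) coat pre-mRNA and often oppose exon inclusion. Many SR protein and hnRNP genes make several isoforms, some with a premature stop that limits the protein, so probe sets that lie in different parts of 1 gene can differ.

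Values are array intensities in multiples of the array median, which is 1 on both arrays. Intensities under 8 (3 on the log2 scale) were raised to that floor before subtraction, DMSO being taken from analogue 3. A gene was represented by its brightest probe set and is called measured where either array reached that floor. Folds are given as the higher array over the lower. Of the 50 genes, 48 were measured and all 48 reached the floor on both arrays. SRSF12 stayed under the floor, at 0.987 with analogue 3 and 0.822 with DMSO. SNRPN did too, at 0.307 with analogue 3 and 0.317 with DMSO in its only single-gene probe set. Of the 155 probe sets, 115 were measured, and the other 40 gave no usable difference.

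As array facts, 26.0% of probe sets of the analogue 3 array and 26.8% of those of the DMSO array reached the floor. For GAPDH the 3′ probe set was 1.18 times the 5′ one on the analogue 3 array, against 1.21 times with DMSO, and for ACTB 10.0 times against 11.8 times, so signal from the 5′ end of ACTB was weak on both arrays. The part of RNA integrity in differences between probe sets of a gene was not tested. Of 10 epithelial and lung adenocarcinoma markers only KRT8 and KRT18 were measured, while EPCAM, CDH1 and NKX2-1 lay under the floor. KRT18 was 457.9 with analogue 3 and 460.8 with DMSO, while KRT8 was 77.8 with analogue 3 and 42.3 with DMSO (1.84-fold higher). Of 5 mesenchymal markers 3 were measured, while CDH2 and FN1 lay under the floor on both arrays. VIM was 1868 with analogue 3 and 1883 with DMSO, SNAI2 95.8 and 68.3 (a log2 difference of 0.49), and ZEB1 82.0 and 91.2. None of 7 leukocyte and none of 6 fibroblast markers on the array reached the floor. Of 5 endothelial markers 2 did: PECAM1 was 15.7 with analogue 3 and 11.4 with DMSO (1.39-fold higher), and CLDN5 11.7 and 35.1 (3.01-fold lower). The 5 summed to 30.7 with analogue 3 and 49.6 with DMSO, and the part of other cells in the results was not tested.

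Splicing factor genes were, in their majority, slightly higher with analogue 3. The log2 difference lay above 0 for 44 of the 48 measured genes, against 44.5% of the 8523 genes measured on the array. Their median was 0.40 (1.32-fold; quartiles 0.19 and 0.61), beside -0.05 over all measured genes (quartiles -0.36 and 0.24). At least 1.5-fold higher were 13 of the 48 genes, against 9.60% of all measured genes, and 1 gene was at least 1.5-fold lower, against 12.9%. At a threshold of 2-fold the share was close to that of the array: 2 of 48 genes were higher (3.74% of all measured genes) and 0 were lower (3.92%). The array has 1 measurement per group, so these counts describe a small shift shared by many members and are no test of it.

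The shift had the same median in both classes of level that held more than 1 member. Among genes with a mean level of 128 or more, 33 of 35 splicing factor genes lay above 0, with a median log2 difference of 0.40, beside 55.2% of 1680 genes at that level with a median of 0.05. Between 32 and 128, 10 of 12 lay above 0 with a median of 0.40, beside 45.7% of 2964 genes with a median of -0.05. Counted by probe set, 29 of 115 were at least 1.5-fold higher (9.71% of all measured probe sets) and 3 were at least 1.5-fold lower (12.0%). At 2-fold, 6 were higher (3.53% of all measured probe sets) and 1 was lower (3.53%). By family the medians were 0.56 for SNRP, 0.40 for HNRNP, 0.35 for SF3A/SF3B and 0.19 for SRSF genes. HNRNP stood below SF3A/SF3B after loess removal (0.32 against 0.40), after quantile normalization (0.30 against 0.37) and with the median of probe sets (0.26 against 0.35). Without probe sets of the _s_at and _x_at kinds HNRNP (0.19) stood below both SF3A/SF3B (0.29) and SRSF (0.23). All 11 SNRP and all 9 SF3A/SF3B genes lay above 0, and did so as well after centring, loess removal and quantile normalization. All 19 HNRNP genes did as deposited, 18 after loess removal and 17 after quantile normalization, where HNRNPH1 and HNRNPU turned below 0. In the SRSF family 5 of 9 lay above 0 and 4 below, a difference between families that was not tested.

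**Figure D1:**
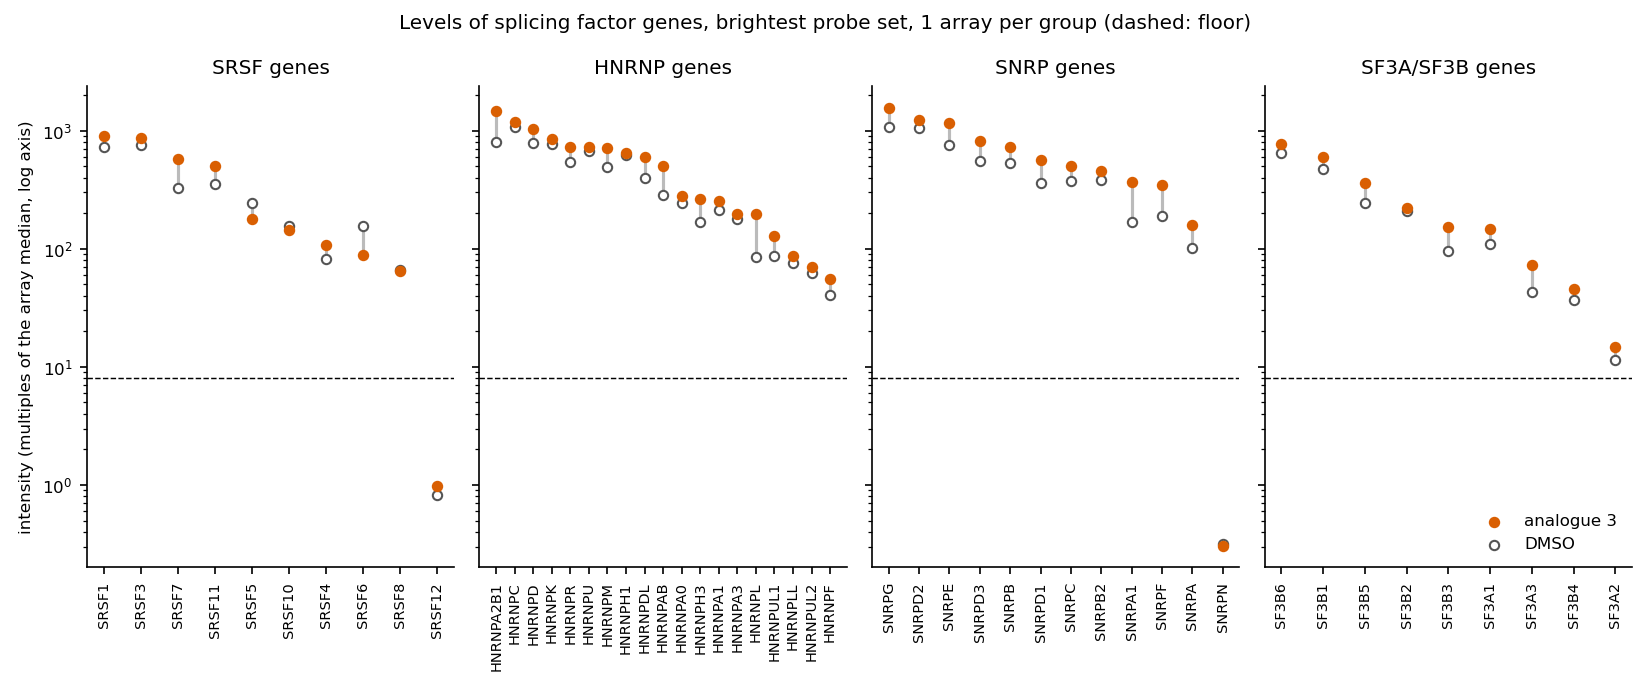
Intensity of the brightest probe set of each of the 50 genes (multiples of the array median, log axis; filled, analogue 3 array; open, DMSO array; dashed line, the floor of 8). In the HNRNP, SNRP and SF3A/SF3B panels the analogue 3 point is above the DMSO point for every measured gene, while SRSF5, SRSF6, SRSF8 and SRSF10 have it below.

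**Figure D2:**
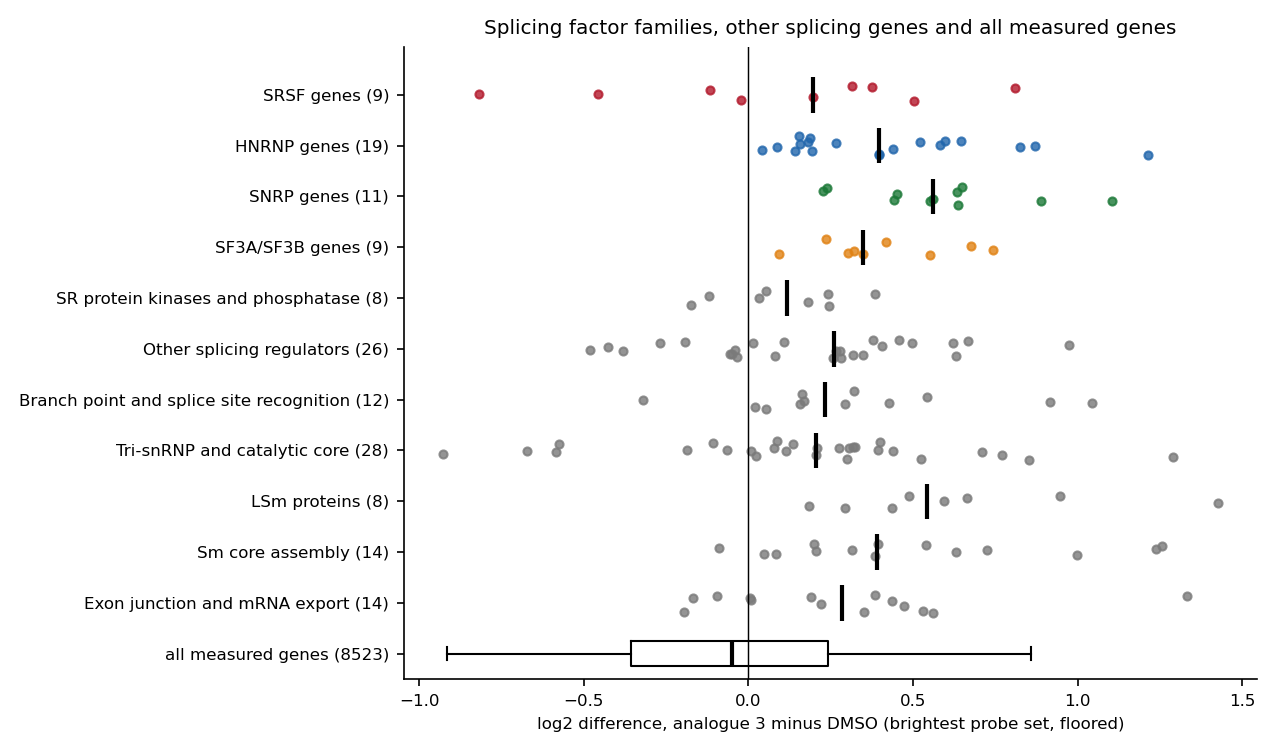
Log2 difference, analogue 3 minus DMSO, of each measured gene of the 4 families (coloured), of 7 lists of other splicing genes (grey) and of all 8523 measured genes (box, quartiles; whiskers, the range without the outer tails of 5% on each side). Black bars are medians, which in the 4 families run from 0.19 (SRSF) to 0.56 (SNRP), and the number of genes is in brackets.

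The promoters of the genes at the ends of this range are shown because expression is the readout that they bear on. SNRPA1 and HNRNPL were the 2 genes at least 2-fold higher, and SRSF6 and SRSF5 the 2 with the lowest differences, all 4 picked after their values were seen. Each sequence is the 250 bases before the annotated start of the gene, from RefSeq on GRCh38.p14, in the direction of the gene. SNRPA1 lies at chr15:101295249-101295498 on the minus strand, HNRNPL at chr19:38852348-38852597 on the minus strand (the first of its 2 annotated starts), SRSF6 at chr20:43457646-43457895 on the plus strand and SRSF5 at chr14:69766892-69767141 on the plus strand. Capitals mark matches, on either strand, to CCGGAAG (ETS factors), CCAAT (NF-Y), TTTNNCGC with each N as C or G (E2F), GCGCA and GCGC with any 1 base between them (NRF1) or TGATGNAA (ATF4 with C/EBP).
SNRPA1: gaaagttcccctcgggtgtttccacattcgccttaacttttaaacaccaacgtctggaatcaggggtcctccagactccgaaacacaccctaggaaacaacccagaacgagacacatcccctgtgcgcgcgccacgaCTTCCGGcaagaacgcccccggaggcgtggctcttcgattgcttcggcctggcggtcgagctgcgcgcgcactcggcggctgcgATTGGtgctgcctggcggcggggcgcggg
HNRNPL: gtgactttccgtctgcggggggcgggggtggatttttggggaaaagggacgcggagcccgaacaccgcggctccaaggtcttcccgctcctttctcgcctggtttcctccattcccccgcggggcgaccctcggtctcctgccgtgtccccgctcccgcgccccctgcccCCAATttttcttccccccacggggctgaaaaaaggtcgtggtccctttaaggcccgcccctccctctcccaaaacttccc
SRSF6: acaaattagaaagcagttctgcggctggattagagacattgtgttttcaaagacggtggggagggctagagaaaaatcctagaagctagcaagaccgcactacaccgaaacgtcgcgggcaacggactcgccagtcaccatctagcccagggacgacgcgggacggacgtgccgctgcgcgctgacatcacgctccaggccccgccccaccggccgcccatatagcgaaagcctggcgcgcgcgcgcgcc
SRSF5: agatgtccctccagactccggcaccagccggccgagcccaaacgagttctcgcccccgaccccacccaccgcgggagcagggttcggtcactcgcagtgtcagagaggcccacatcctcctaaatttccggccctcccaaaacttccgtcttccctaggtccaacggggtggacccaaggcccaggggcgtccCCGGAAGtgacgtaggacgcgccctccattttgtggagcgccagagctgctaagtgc
SNRPA1 held 1 ETS and 1 NF-Y match, HNRNPL 1 NF-Y match, SRSF5 1 ETS match and SRSF6 none of the 5 motifs. No match overlapped another in these 4 sequences.

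Over all 4 families, 47 of the 50 genes had a promoter in the RefSeq table, in 70 windows of 300 bases (250 before the start and 50 after). The ETS motif stood in 28.6% of these 70 windows, in 10.3% of all 35116 windows and in 12.8% of the 22199 windows of protein-coding genes. Of the 19 SNRP windows 9 held it, and of the 9 SF3A/SF3B windows 6, but only 3 of 29 HNRNP and 2 of 13 SRSF windows did. The NRF1 motif stood in 17.1% of member windows and 7.39% of protein-coding windows, and the E2F motif in 12.9% and 4.10%. The NF-Y motif stood in 38.6% and 34.7%, and the ATF4 motif in 2.86% and 2.69%. By family, NF-Y matches stood in 18 of 29 HNRNP, 3 of 13 SRSF, 5 of 19 SNRP and 1 of 9 SF3A/SF3B windows. Several windows can belong to 1 gene, and a match is a description of letters, not a bound site.

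Genes of the Sm ring, the 7 proteins shared by the spliceosomal snRNPs, were all higher with analogue 3. SNRPF had an intensity of 349.2 with analogue 3 and 188.5 with DMSO, or 1.85-fold, the widest gap among the brightest probe sets of the 7. SNRPD1 was 560.8 with analogue 3 and 360.8 with DMSO in its brighter probe set, and 65.4 and 42.4 in the other. Those probe sets thus gave nearly the same difference, 0.64 and 0.62 on the log2 scale. SNRPE was 1168 with analogue 3 and 752.9 with DMSO (1.55-fold), and 56.9 and 28.5 in its other measured probe set (2.00-fold, just short of the threshold). SNRPB, which encodes the B and B′ proteins, was 726 with analogue 3 and 531.4 with DMSO (1.37-fold), and 489.4 and 272 in its other probe set (1.80-fold). The remaining ring members SNRPD3, SNRPG and SNRPD2 differed by 0.56, 0.55 and 0.23 on the log2 scale. The ring had a median of 0.56 and a range from 0.23 to 0.89.

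Proteins specific to the U1 or the U2 particle were also higher. SNRPA1 encodes the A′ protein of U2, which binds a stem-loop of U2 RNA together with the product of SNRPB2. Its brightest probe set read 365.3 with analogue 3 and 169.9 with DMSO (2.15-fold). Its other probe sets read 133.3 and 50.2 (2.66-fold) and 99.7 and 39.1 (2.55-fold), so all 3 measured probe sets were past 2-fold. The partner gene SNRPB2 was 451.1 with analogue 3 and 382.1 with DMSO, a log2 difference of 0.24. SNRPA, the A protein of U1 that binds U1 RNA, was 159.3 with analogue 3 and 101.7 with DMSO (1.57-fold). SNRPC, the C protein of U1 that helps to recognise the 5′ splice site, was 505.5 with analogue 3 and 372.2 with DMSO, a log2 difference of 0.44.

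Of the SF3 genes, the 3 SF3A and 6 SF3B members lay between 0.09 and 0.74 on the log2 scale. SF3A3 was 72.5 with analogue 3 and 43.3 with DMSO (1.67-fold). SF3B3, a scaffold of the SF3b complex, was 153.3 with analogue 3 and 96.0 with DMSO (1.60-fold), and its other probe set, under the floor with DMSO, was at least 1.44-fold higher. These were the only 2 SF3 genes past 1.5-fold in their brightest probe set. SF3B1, the subunit that contacts the branch point, read 592.4 with analogue 3 and 474.8 with DMSO (1.25-fold) in its brightest probe set. Among its 4 other probe sets, one read 79.4 with analogue 3 and 45.5 with DMSO (1.74-fold) and another 49.1 and 30.0 (1.63-fold). All 5 lay above 0, from 0.30 to 0.80. SF3A1, SF3B5, SF3A2, SF3B4, SF3B6 and SF3B2 differed by 0.42, 0.55, 0.35, 0.30, 0.24 and 0.09.

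HNRNPL, which binds CA-rich RNA and is known for repressing or activating exons, had the largest gap of the hnRNP genes. It read 198.3 with analogue 3 and 85.6 with DMSO (2.32-fold), and 69.2 and 31.2 in its second probe set (2.22-fold). The related gene HNRNPLL differed far less, at 86.6 with analogue 3 and 76.5 with DMSO, and at 14.7 and 15.5 in its next probe set. HNRNPAB was 506.2 with analogue 3 and 285.9 with DMSO (1.77-fold) in its only probe set. HNRNPH3 was 261.4 with analogue 3 and 167.2 with DMSO (1.56-fold), and its 4 probe sets lay between 0.34 and 0.64 on the log2 scale. Its relative HNRNPH1 lay between 0.01 and 0.22 over 3 probe sets.

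HNRNPD, also called AUF1, binds AU-rich elements that mark mRNA for decay. It read 1028 with analogue 3 and 781.6 with DMSO (1.32-fold) in its brightest probe set. Over its 5 measured probe sets the log2 difference ran from 0.19 to 0.85. Its paralogue HNRNPDL was 596.4 with analogue 3 and 394.2 with DMSO (1.51-fold), with all 4 measured probe sets between 0.34 and 0.79. HNRNPR was 720.9 with analogue 3 and 547.4 with DMSO (1.32-fold), and 183.5 and 120.5 in its second probe set (1.52-fold). HNRNPUL1 lay just under the threshold in its brightest probe set, at 129 with analogue 3 and 86.2 with DMSO, and above it in the other, at 33.6 and 18.9 (1.78-fold). HNRNPM differed by 0.52 and 0.51 in its 2 measured probe sets.

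Apart from HNRNPA2B1, which is described below, the remaining hnRNP genes were under 1.5-fold in their brightest probe set. HNRNPC, whose product forms the core particle with the A and B proteins, read 1191 with analogue 3 and 1079 with DMSO, and 4 of its 5 measured probe sets lay between 0.14 and 0.17 on the log2 scale. The fifth read 75.5 with analogue 3 and 45.6 with DMSO (1.65-fold). HNRNPK, HNRNPU, HNRNPUL2, HNRNPA0 and HNRNPA1 differed by 0.15, 0.09, 0.19, 0.19 and 0.26, and HNRNPF by 0.44. HNRNPA1 has many near-identical copies in the genome, and its brightest probe set is of the _x_at kind that can cross-hybridise, so its value is uncertain between copies. Of these differences, those of HNRNPC, HNRNPK, HNRNPU, HNRNPUL2 and HNRNPA0 in their brightest probe sets are below 0.23, the SD of 1 probe set that the disagreement between probe sets of a gene gives over the whole array. In size, so are those of HNRNPH1, HNRNPA3, HNRNPLL, SF3B2, SRSF3, SRSF8, SRSF10 and, narrowly, SNRPD2 (0.226). This SD leaves out error of culture, RNA and hybridisation that the probe sets of a gene share. A difference above it is therefore not shown to exceed the error between arrays.

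SR protein genes split in direction. SRSF7 was 577.5 with analogue 3 and 329.6 with DMSO (1.75-fold) in its brightest probe set, and its other measured probe sets were higher by less, at 67.4 and 58.4 and at 44.7 and 30.6. SRSF11 was 499.9 with analogue 3 and 352.5 with DMSO, a log2 difference of 0.50, SRSF4 differed by 0.38 and SRSF3 by 0.19. Lower were SRSF6 and SRSF5, whose products regulate alternative exons. SRSF6 read 88.3 with analogue 3 and 155.6 with DMSO (1.76-fold lower), and 16.1 and 22.3 in its second probe set (1.39-fold lower). SRSF5 read 177.9 with analogue 3 and 244.1 with DMSO (1.37-fold lower), and 107.5 and 129.5 in its second measured probe set (1.20-fold lower).

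SRSF8 was nearly level in the 2 probe sets that both arrays measured, with 65.2 with analogue 3 and 66.3 with DMSO and with 22.2 and 23.7. Another, under the floor with analogue 3, was at least 1.60-fold lower. SRSF10, which turns into a repressor when it is dephosphorylated, differed by -0.12 in its brightest probe set, at 143.4 with analogue 3 and 155.5 with DMSO. Of its 4 other probe sets 3 lay above 0, the highest at 84.7 with analogue 3 and 57.2 with DMSO, or 0.57 on the log2 scale. Its 5 probe sets thus span 0.79.

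SRSF1, the prototype SR protein, held probe sets of clearly opposite direction. Its 3 brightest were moderately higher with analogue 3, at 894.4 against 719.7 with DMSO, 127.4 against 91.9, and 57.6 against 40.8. Of the 2 dimmer ones, the dimmer on the DMSO array read 26.3 with analogue 3 and 12.2 with DMSO, or 2.16-fold higher. The other read 16.9 with analogue 3 and 43.4 with DMSO, or 2.57-fold lower. The 2.48 between their log2 differences was the widest gap of any of the 2874 genes with at least 2 probe sets at the floor on both arrays. It ranked 1 after quantile normalization too, but 2 when 8 was added to each value in place of the floor, 5 of 4882 genes with a floor of 1 on the log2 scale, and 39 of 10523 genes with no floor. Without probe sets of the _s_at and _x_at kinds SRSF1 kept only 1 at the floor on both arrays, so it had no gap to rank. The annotation does not give the transcripts that these probe sets detect, so which isoform each value stands for is not known here.

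**Figure D3:**
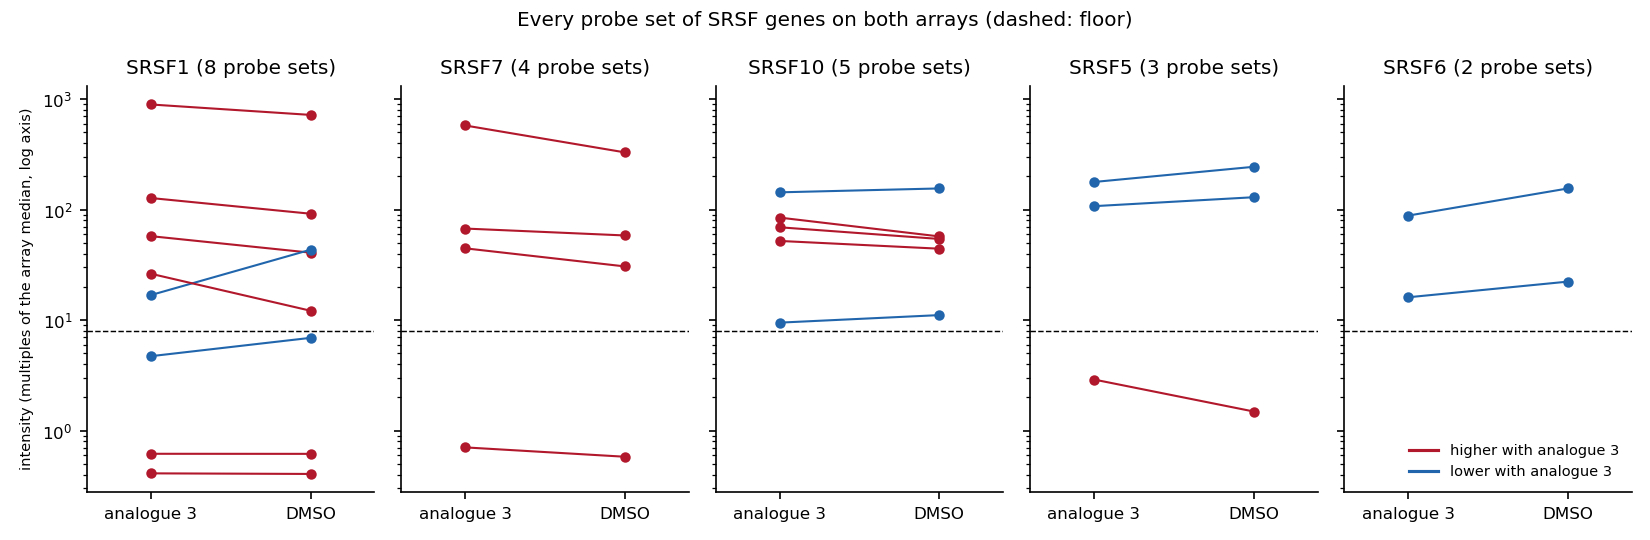
Intensity of every probe set of 5 SRSF genes on the analogue 3 and DMSO arrays (multiples of the array median, log axis; 1 line per probe set; dashed line, the floor of 8). SRSF1 has lines that cross between 12.2 and 43.4, and both SRSF6 lines and the 2 SRSF5 lines above the floor climb towards DMSO.

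Whether a gene's probe sets told the same story could be asked for 31 of the splicing factor genes. In 19 every probe set lay above 0, in 3 (SRSF5, SRSF6 and SRSF8) every one lay below, and in 9 the signs were mixed, against 25.7% of all 2874 such genes. By family, mixed signs were found in 5 of 17 HNRNP, 3 of 8 SRSF, 1 of 2 SF3A/SF3B and 0 of 4 SNRP genes. In some mixed genes the negative value was close to 0, as in HNRNPK at 0.15 and -0.04 and in SF3A1, whose lowest probe set was at -0.01. Only for HNRNPL and SNRPA1 was every probe set past 2-fold, both higher. Of these patterns, only mixed signs were counted over all such genes of the array.

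A gap of at least 1 on the log2 scale between the highest and the lowest probe set was found in 3 of the 31 genes, SRSF1, HNRNPA2B1 and HNRNPA3, against 3.03% of all such genes. HNRNPA2B1, which binds exons and carries RNA in the cytoplasm, read 1460 with analogue 3 and 798.6 with DMSO (1.83-fold) in its brightest probe set. Its next probe set read 82.3 with analogue 3 and 97.7 with DMSO, a log2 difference of -0.25, and the dimmest 14.0 and 12.6. The gene's direction therefore rests on which probe set stands for it. In HNRNPA3 the second probe set had the highest difference: its brightest probe set read 198.6 with analogue 3 and 178.2 with DMSO, the second 148.2 and 83.6 (1.77-fold), and the dimmest 34.9 and 40.6.

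Gaps grow with the number of probe sets, and these genes have many. Among genes with 2 probe sets the median gap was 0.19 over 13 splicing factor genes and 0.15 over 1941 genes of the array. With 3 it was 0.35 over 9 and 0.28 over 659 genes, and with 4 or more 0.59 over 9 and 0.41 over 274 genes. At a gap of 1.5-fold, 8 of 31 splicing factor genes were counted against 12.2% of all such genes. Between the brightest and the next probe set, the sign was the same in 27 of the 31 genes (87.1%), beside 79.6% of all 2874. Most of the 31 genes lie above 0, so a shared sign says little about agreement. The Pearson correlation of these 2 probe sets was 0.65 over the 31 genes and 0.80 over all 2874. Their median gap was 0.19 against 0.14.

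**Figure D4:**
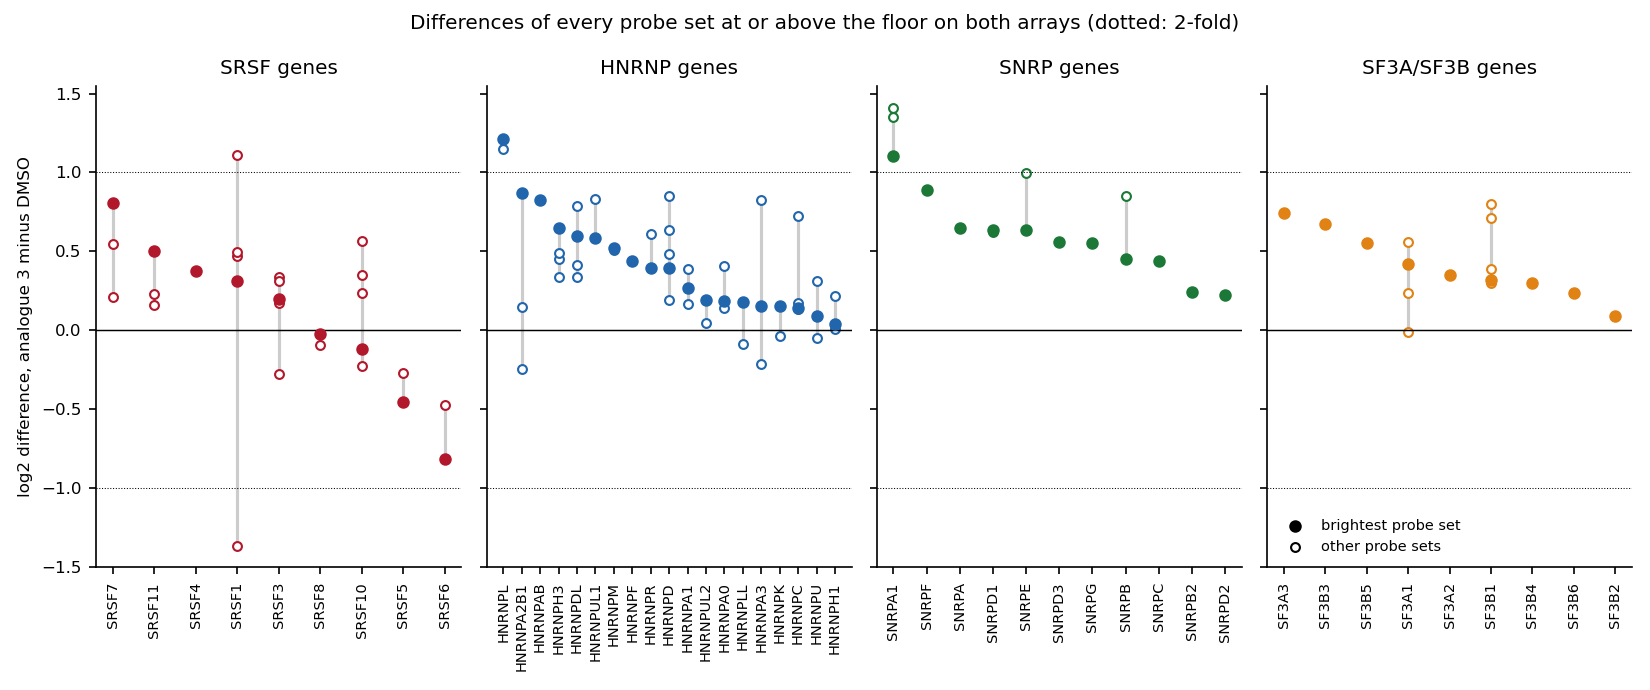
Log2 difference, analogue 3 minus DMSO, of each probe set that reached the floor on both arrays (filled, brightest probe set of a gene; open, others; grey bars join the probe sets of a gene; dotted lines, 2-fold). The SRSF1 bar runs from -1.36 to 1.11, HNRNPL and SNRPA1 lie wholly above 1, and the SRSF panel alone has genes with every point below 0.

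**Figure D5:**
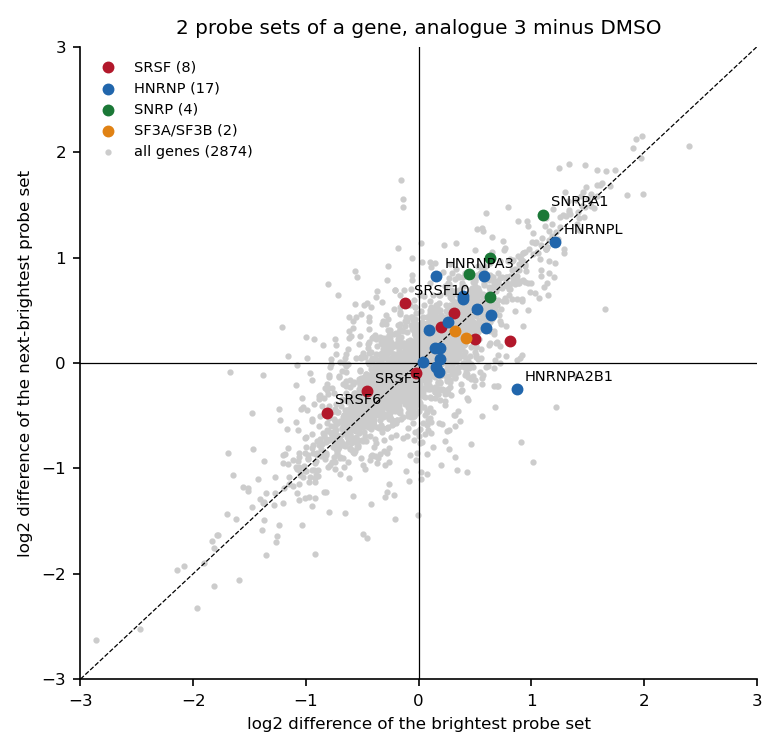
Log2 difference of the next-brightest probe set (vertical axis) against that of the brightest (horizontal axis) for all 2874 genes with at least 2 probe sets at the floor on both arrays (grey) and for the 31 splicing factor genes (coloured by family; dashed line, equal differences). HNRNPA2B1 lies below the horizontal axis at 0.87 and -0.25, and SNRPA1 and HNRNPL lie near the dashed line beyond 1.

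Other genes of the splicing pathway were set beside these families in 7 lists. Of 110 measured genes 87 lay above 0, 20 were at least 1.5-fold higher and 2 at least 1.5-fold lower, with a median of 0.27 on the log2 scale. Over all measured genes the shares were 44.5% above 0, 9.60% at least 1.5-fold higher and 12.9% at least 1.5-fold lower. Proteins of the LSm ring, the counterpart of the Sm ring on U6 RNA and in mRNA decay, had a median of 0.54 with all 8 above 0. In that list LSM3 read 281.2 with analogue 3 and 104.6 with DMSO (2.69-fold), and LSM5 436 and 226.4 (1.93-fold). The Sm core assembly list had a median of 0.39 with 13 of 14 above 0. It holds genes of the SMN complex and the methylosome, which load the Sm ring onto RNA. It also holds SNUPN, TGS1, PHAX and COIL, which are part of neither. SMN1 and SMN2 had no probe set of their own and were not counted. GEMIN6 read 61.5 with analogue 3 and 25.8 with DMSO (2.39-fold), GEMIN4 38.6 and 16.4 (2.36-fold), and WDR77, a methylosome subunit, 115.1 and 57.7 (2.00-fold, just short of the threshold).

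In the other lists the medians were lower. The list of branch point and splice site recognition had a median of 0.23 over 12 genes, and SNRNP70, the U1-70K protein, read 84.7 with analogue 3 and 41.1 with DMSO (2.06-fold). Its next member, the helicase gene DDX46, differed by 0.92. The tri-snRNP and catalytic core list had a median of 0.21 over 28 genes, 21 of them above 0, and held both directions. In it 4 genes were at least 1.5-fold higher (9.60% of all measured genes) and 2 at least 1.5-fold lower (12.9%). The cyclophilin gene PPIH of the tri-snRNP was 155.6 with analogue 3 and 63.7 with DMSO (2.44-fold), while SLU7, a second-step factor, was 84.3 with analogue 3 and 160.4 with DMSO (1.90-fold lower), and SYF2 84.2 and 134.2 (1.59-fold lower). The list of exon junction and mRNA export genes had a median of 0.29 over 14 genes, with the export adaptor ALYREF at 462.8 with analogue 3 and 183.9 with DMSO (2.52-fold) and RBM8A differing by 0.56.

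Regulators outside the machine also had small medians. The list of other splicing regulators had a median of 0.26 over 26 genes, 17 of them above 0. In that list ELAVL1, which encodes the RNA-stabilising protein HuR, read 292.5 with analogue 3 and 148.9 with DMSO (1.96-fold), and SRRM1 differed by 0.67. Kinases that phosphorylate SR proteins, with PP1 as a phosphatase, had a median of 0.12 over 8 genes and none reached 1.5-fold. CLK4 read 41.8 with analogue 3 and 32.0 with DMSO, a log2 difference of 0.38, and SRPK1 differed by 0.25.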

How the data were processed

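Total RNA of 2 CL1-5 cultures was hybridised to 1 array each. Per the submitters' processing notes the authors used GCRMA, with no version given there. The deposited intensity values are linear with a median of 1 on both arrays, a scaling read from the values and stated in no label. Of 54675 probe sets 41097 carried 1 gene symbol in GEO's platform annotation, 1801 several, and 11777 were not listed. All 155 member probe sets matched RefSeq (GRCh38.p14) by gene number with current symbols.

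Intensities were taken to log2, floored at 3 and subtracted (Python 3.11.15, pandas 2.3.3). An earlier analysis of these arrays used a floor of 5, here an alternative, because it had been set for another scale. Thresholds were 1.5- and 2-fold. Each group being 1 array, no difference was tested for significance. Every member was accounted for, and values are given for members with a probe set past 1.5-fold or with probe sets at least 1 apart, and for pathway genes past 2-fold plus up to 2 more per list. Further members and list genes (such as SNRPB2, SYF2 and KRT18) were chosen after their values were seen. The members and lists were chosen with earlier results of these data known. The number of arrays limits the precision. The counting procedure was tested on simulated data. Alternatives were other floors, an offset, centring, loess (statsmodels 0.14.6, span 0.3), quantile normalization and other choices of probe set.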

Additional observations from a re-analysis of the deposited data

Results flagged for a closer look

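Probe sets that name a gene of these families together with another gene were left out of all counts, but held signal. Of 24 such probe sets 15 reached the floor, and 3 of the 15 were at least 1.5-fold higher with analogue 3 than with DMSO (9.71% of all measured probe sets). None was at least 1.5-fold lower (12.0%), and 13 of the 15 lay above 0. The 15 had a median log2 difference of 0.24, beside -0.03 over all measured probe sets. The shares and the latter median cover only probe sets with 1 gene symbol, for which the share above 0 was not counted.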

How the results depend on the processing

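The median log2 difference, 0.40 over 48 genes, ran from 0.34 (33 genes, next-brightest probe set) to 0.45 (48 genes, centring) under the 10 alternatives. The count at least 2-fold higher was 2 in each, although without _s_at and _x_at probe sets SRSF1 takes the place of SNRPA1, which has no other measured probe set. The count at least 1.5-fold higher was 10 of 48 after loess removal and after quantile normalization (11.2% and 10.3% of all genes), 17 of 48 after centring (10.9%), and 9 of 33 with the next-brightest probe set (10.1%) and without _s_at and _x_at (9.47%). The count at least 1.5-fold lower was 1. Without _s_at and _x_at probe sets it was 1 of 33 (14.1% of all genes), with SRSF8 (-0.68 after flooring) in place of SRSF6, which has no other probe set. It became 0 of 33 (11.2%) with the next-brightest probe set, an alternative added after seeing the data, since SRSF6 is 1.39-fold lower there. Under this last alternative the SNRP median was 0.92, over the 4 genes that have such a probe set, and HNRNPA2B1 turned to -0.25. Genes with probe sets at least 2-fold apart numbered 3 of 31 (3.03% of all such genes). They numbered 2 of 31 with the offset (1.22%), loess removal (3.17%) or quantile normalization (3.13%). With a floor of 5 the count was 2 of 22 (0.80%), and with a floor of 1 it was 4 of 34 (6.64%). With no floor it was 10 of 38 (11.2%), and without _s_at and _x_at 1 of 11 (4.14%). That 1 gene was HNRNPA3, because SRSF1 and HNRNPA2B1 then had fewer than 2 probe sets at the floor on both arrays. At a gap of 1.5-fold, 8 of 31 were counted (12.2%). Of 219 values of single named genes under the alternatives, 198 moved by less than 0.23, the SD of 1 probe set. The other floors, or none, left every one of these values unchanged, and centring shifted all of them alike. All larger moves came from another choice of probe set. SRSF8 also changed sign, within that SD, to 0.03 after centring and 0.01 after loess removal. No paired analysis was possible because each group has 1 array. Culture, RNA and hybridisation error cannot be measured with 1 array per group.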
